A study of Mus musculus with 6 samples.

Results

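Collagens are the triple-helical proteins of the extracellular matrix, and 44 collagen genes were present in the transcript table, spread over 216 of its 105129 transcript rows. They were selected by symbol alone, as every gene written Col, a number, a and a number, among 33641 gene symbols. The abundance of each gene was taken as the sum over its isoforms in TPM, transcript abundance corrected for transcript length and scaled to the same total in every library, so genes can be compared on it. By mean over 6 libraries, 22 collagens were at 1 TPM or more and 22 were under 1 TPM. The upper 22 were also the collagens that reached 1 TPM in 3 or more libraries, and only these were tested, among 11099 genes in all.

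The libraries were poly-A selected and stranded, and came from the quadriceps of male littermates at 4 months (about 16 weeks) of age, whose parents were heterozygous. Tissue was taken at about ZT4, frozen and pulverised, so RNA of every cell type in it was measured together. For 3 libraries, the mice carried the rs6190 allele on both copies of the glucocorticoid receptor gene (rs6190 allele +/+, called homozygous below). This allele is a copy in mice of a human variant. The other 3 carried the reference allele on both chromosomes (ref allele +/+, called WT). The labels name no treatment, no tissue-specific driver and no pooling of animals. They give the replicates as numbers only, so whether each library was a separate mouse is not stated. In bulk tissue, fewer cells of a type and less RNA per cell cannot be told apart.

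Fibrillar collagens (types I, II, III, V, XI, XXIV and XXVII) assemble into the tensile fibres of the tissue, and in muscle they are made mainly by interstitial fibroblasts and fibro-adipogenic cells. Type IV forms the sheet-like network of the basement membrane around each muscle fibre and capillary, and type VI forms beaded microfilaments that link that membrane to the interstitium. The remaining types decorate fibrils (the FACIT group), sit in the basement membrane zone (the multiplexins XV and XVIII), span the plasma membrane, or form anchoring fibrils and small networks. Glucocorticoids are known to lower collagen synthesis in connective tissue. The genotypes were compared for each collagen.

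Upstream sequences are shown for 4 collagens on whose levels the results below turn: Col3a1, Col6a3 and Col5a1, which shared the same lowest library, and Col24a1, whose gene sum lay lower in every homozygous library without passing the test. Each run is the 250 bases before the RefSeq start on GRCm38.p6, 5′ to 3′ on the gene's own strand, and capitals mark matches on either strand to a CCAAT box, to TATAAA (the TATA box) or to GGGCGG (the GC box). The windows are chr1:45311288-45311537 on the plus strand for Col3a1, chr1:90843972-90844221 on the minus strand for Col6a3, chr2:27886175-27886424 on the plus strand for Col5a1 and chr3:145292222-145292471 on the plus strand for Col24a1. None of them overlaps an annotated exon of GENCODE M21.
Col3a1: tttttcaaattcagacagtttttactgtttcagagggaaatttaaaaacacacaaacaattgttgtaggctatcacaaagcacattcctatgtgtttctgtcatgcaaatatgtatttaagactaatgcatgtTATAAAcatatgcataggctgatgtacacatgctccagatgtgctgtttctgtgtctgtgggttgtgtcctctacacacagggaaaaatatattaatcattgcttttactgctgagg
Col6a3: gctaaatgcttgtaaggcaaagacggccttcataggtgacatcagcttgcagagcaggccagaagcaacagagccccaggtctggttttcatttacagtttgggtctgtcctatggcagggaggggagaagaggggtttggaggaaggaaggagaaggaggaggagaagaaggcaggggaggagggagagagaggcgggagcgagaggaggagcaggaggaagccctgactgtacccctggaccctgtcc
Col5a1: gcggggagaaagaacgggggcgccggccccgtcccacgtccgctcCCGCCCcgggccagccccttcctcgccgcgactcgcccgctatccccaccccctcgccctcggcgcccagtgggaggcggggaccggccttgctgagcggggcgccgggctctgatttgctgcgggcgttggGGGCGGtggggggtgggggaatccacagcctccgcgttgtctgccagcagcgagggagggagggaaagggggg
Col24a1: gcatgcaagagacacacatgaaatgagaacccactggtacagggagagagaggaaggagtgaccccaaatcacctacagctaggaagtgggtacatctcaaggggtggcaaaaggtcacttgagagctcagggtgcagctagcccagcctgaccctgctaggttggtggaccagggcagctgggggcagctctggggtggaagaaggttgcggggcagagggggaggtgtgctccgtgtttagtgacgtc

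Of the 44 collagens, 35 had a RefSeq window. Col3a1 had 1 match to TATAAA, which ended 112 bases before the start, and Col5a1 had 2 matches to GGGCGG, the nearer ending 68 bases before the start. The letters CCAAT occurred in 13 of the 35 collagens (37.1%), against 33.8% of all 32851 windows of the same length. TATAAA occurred in 5 (14.3%), against 12.4%, and GGGCGG in 21 (60%), against 32.7%, counted at any position in the window. A gene counts as matched if any of its windows holds the letters, and the 35 collagens had 38 windows. A 15-base form of the glucocorticoid response element (AGAACA, any 3 bases, then the reverse complement of AGAACA) was found in 0 of the 35 and in 3 of all windows (0.00913%). AGAACA by itself, which that element contains, was found in 2 of the 35 (Col9a1 and Col20a1), against 16.1% of all windows. A match is a description of these letters only.

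Libraries also differed in muscle fibre genes. Summed over 11 slow-fibre genes the level was 1685, 9158 and 2007 TPM in homozygous 1, 2 and 3. In WT 1, 2 and 3 it was 1581, 1021 and 207 TPM. Homozygous 2 thus stood far above the rest, and homozygous 1 was close to WT 1. Single genes with the homozygous libraries above made up 34.7% of all genes tested. Summed over 12 fast-fibre genes the level reached 231900 TPM in WT 3, against 96660 to 131400 TPM in the other 5 libraries. Defining genes of skeletal muscle (9 genes) summed to 42350 to 65090 TPM in every library, and 8 cartilage markers to 0.633 to 1.73 TPM, with Acan and Matn1 at 0 in all. The part of fibre type in the collagen values was not tested. Over all genes tested the median log2 fold change was 0.26, on log2(TPM + 1) and homozygous minus WT, so changes below are also given relative to it.

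No collagen gene differed between the genotypes at an adjusted p under 0.05 (limma, Benjamini-Hochberg over 11099 genes), and 0% of all genes tested did. At an unadjusted p under 0.05 there was 1 of 22 collagens, Col22a1, against 24.3% of all genes tested. The groups did not overlap for 2 of the 22, Col22a1 with the homozygous libraries above and Col24a1 with them below, against 35.5% of all genes. Col24a1 passed the filter through its WT libraries alone. The median log2 fold change of the 22 collagens was 0.09, or -0.18 relative to all genes. Of the 22, 16 were above 0 and 4 were above the median of all genes (Col22a1, Col16a1, Col11a2 and Col5a2), against 85.8% and 50% of all genes. When each library was centred on its median, which moves every gene of a library alike, 2 of 22 were above 0 (Col22a1 and Col16a1), against 44.3% of all genes. The other 14 fold changes above 0 were smaller than that shift.

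**Figure D1:**
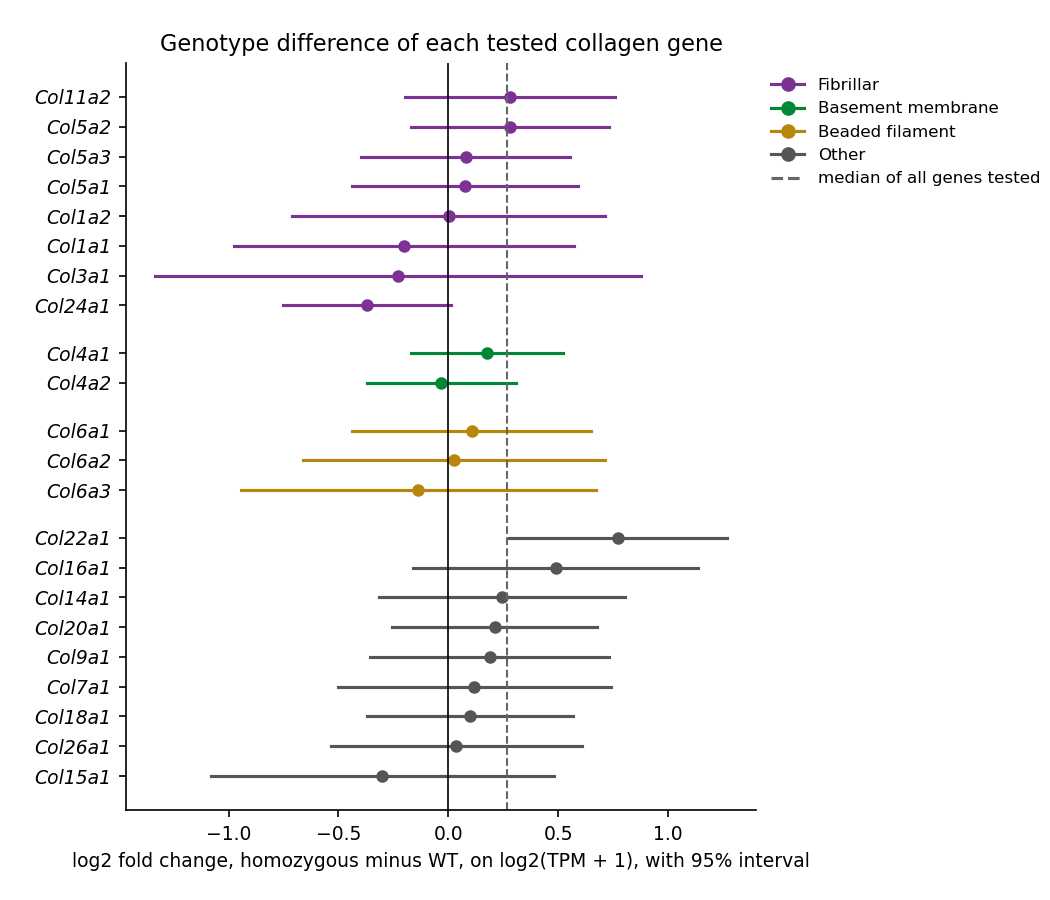
Log2 fold change (homozygous minus WT, on log2(TPM + 1)) of each tested collagen, with its 95% interval from limma, by class; the dashed line is the median of all genes tested, 0.26. The intervals of 21 of the 22 genes include 0, and that of Col22a1 runs from 0.27 to 1.27.

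Summed over all 44 genes, collagen abundance was 122, 109.9 and 103.9 TPM in homozygous libraries 1, 2 and 3, and 76.8, 138.7 and 118.8 TPM in WT libraries 1, 2 and 3. The homozygous mean was 111.8 ± 8.96 TPM and the WT mean 111.4 ± 31.6 TPM (SD, n = 3 each). The WT libraries spanned the homozygous ones, with WT 1 the lowest of the 6 and WT 2 the highest. The 22 tested genes held 94.0% to 97.4% of that sum. The most abundant collagen, Col3a1, stood above 68.3% of all genes tested, and only 4 collagens exceeded the median gene (7.61 TPM).

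**Figure D2:**
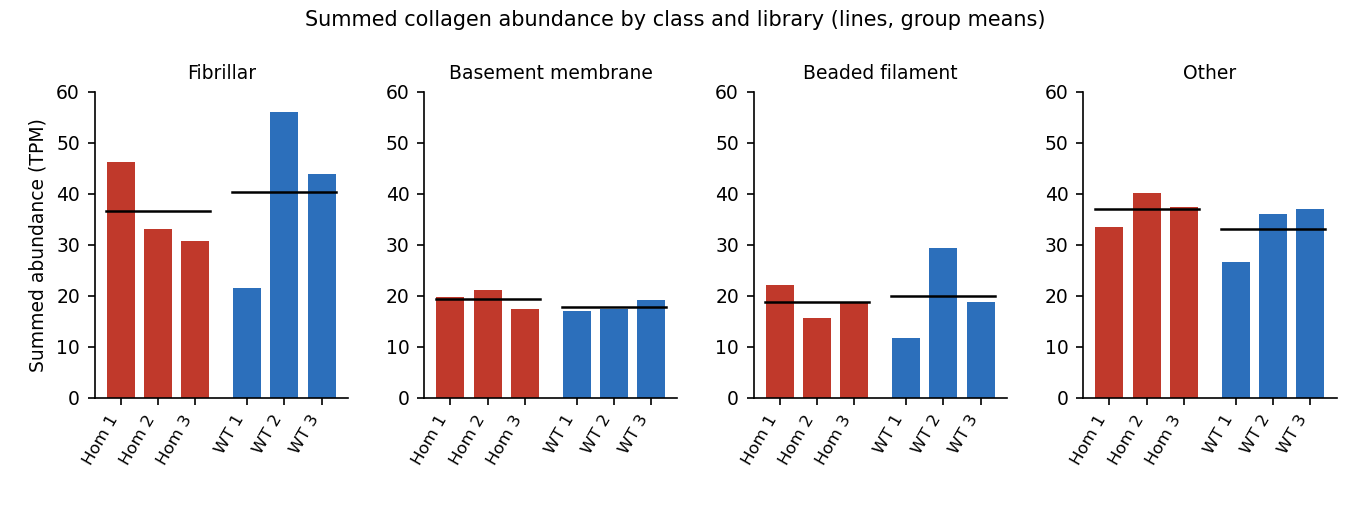
Summed TPM of fibrillar (11 genes), basement membrane (6), beaded-filament (6) and other (21) collagens in each library, with lines at the group means. The fibrillar sum runs from 21.5 TPM in WT 1 to 56.0 TPM in WT 2, whereas the basement membrane sum stays between 17.1 and 21.04 TPM.

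Fibrillar collagens, led by types III and I, varied most between libraries of the 4 classes. Their sum was 46.2, 33.1 and 30.7 TPM in homozygous mice and 21.5, 56.0 and 43.8 TPM in WT mice, a range of 2.60-fold over the 6 libraries. Of the 8 tested members, 0 passed the threshold, 5 were above 0 and 3 below, and their median log2 fold change was 0.04 (-0.22 relative to all genes). All but Col24a1 had overlapping groups.

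Col3a1 (chromosome 1, 45311538 to 45349706), the single chain of type III collagen in pliable reticular fibres, was the most abundant collagen. It measured 21.4, 9.45 and 11.1 TPM in homozygous 1, 2 and 3, and 7.31, 25.9 and 19.5 TPM in WT 1, 2 and 3. The highest and the lowest library were both WT. Its log2 fold change was -0.23, with a 95% interval of -1.34 to 0.87 (limma, adjusted p 0.752), and without WT 2 it was 0.12.

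Col1a2 (chromosome 6, 4504814 to 4541544) and Col1a1 (chromosome 11, 94936224 to 94953042) encode the chains of type I collagen, the main tensile collagen. Col1a2 was 9.83, 7.59 and 7.33 TPM in homozygous mice and 4.74, 13.3 and 8.43 TPM in WT mice. Col1a1 was 4.62, 2.72 and 2.76 TPM in homozygous mice and 1.95, 6.24 and 4.59 TPM in WT mice. For both, WT 1 was lowest and WT 2 highest, as for Col3a1, with homozygous 1 above homozygous 2 and 3. The log2 fold changes were 0.0019 (interval -0.71 to 0.71) for Col1a2 and -0.20 (-0.98 to 0.57) for Col1a1, neither beyond the spread between replicates (limma, adjusted p 0.997 and 0.696). Col1a2 lay above Col1a1 in every library. The ratio of Col1a1 to Col1a2 stayed between 0.359 and 0.545, a range of 1.52-fold, while the genes themselves ranged over 3.19-fold and 2.80-fold.

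Type V and XI chains are minor partners that set the diameter of fibrils. Col5a1, Col5a2 and Col5a3 were at 1.94 ± 0.198, 2.27 ± 0.385 and 2.68 ± 0.636 TPM in homozygous and 1.85 ± 0.732, 1.71 ± 0.503 and 2.49 ± 0.663 TPM in the WT group (SD, n = 3 each). WT 1 was the lowest library for all 3 of them. Col11a2 was 2.60, 3.45 and 1.69 TPM in homozygous mice and 1.86, 1.98 and 1.82 TPM in WT mice. Its wide homozygous range enclosed the narrow WT one. The smallest adjusted p of these 4 genes was 0.366, for Col5a2 (limma). Only 27.6% of the Col11a2 sum came from its full-span coding isoform.

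Col24a1 (chromosome 3, 145292472 to 145552011) encodes a minor fibrillar chain and was the only tested collagen whose homozygous libraries all lay below the WT libraries. It was 0.862, 0.858 and 0.989 TPM in homozygous mice and 1.16, 1.42 and 1.84 TPM in WT mice. The homozygous values were tight and the gap to WT 1 was small. It reached 1 TPM only in the 3 WT libraries, so it passed the filter through the group where it was higher. Its lack of overlap is therefore partly set by the filter and is given as a description only. The log2 fold change was -0.37 (SE 0.17, interval -0.75 to 0.014), or -0.63 relative to all genes, and it did not pass the threshold (limma, adjusted p 0.215). Groups with the homozygous libraries below made up 0.73% of all genes, and 8.38% after median centring, where Col24a1 was still among them and 0 collagens lay above, against 6.79% of all genes. Its full-span isoform alone (7143 nt, 74.6% of the sum) overlapped, at 0.862, 0.858 and 0.597 TPM against 0.676, 0.912 and 1.42 TPM. The rest was a 330-nt isoform at the 5′ end, listed at 0 in homozygous 1 and 2, at 0.392 TPM in homozygous 3 and at 0.430 to 0.510 TPM in WT.

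**Figure D3:**
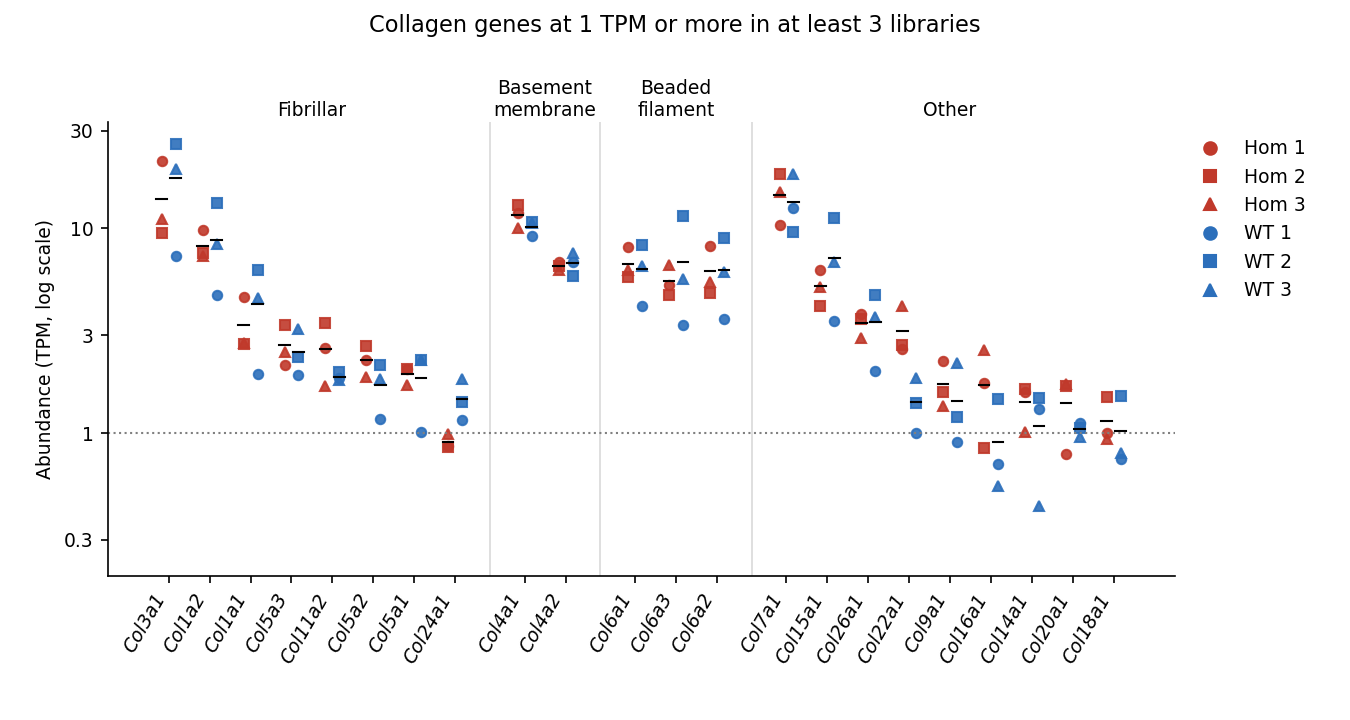
Abundance (TPM, log axis) of the 22 tested collagens in each library, by class, with short lines at the group means and a dotted line at 1 TPM. WT 1 and WT 2 bracket the other libraries for 9 genes (Col1a1, Col1a2, Col3a1, Col6a1, Col6a2, Col6a3, Col15a1, Col18a1 and Col26a1), and the groups are apart for Col22a1 and Col24a1.

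Among fibrillar genes under 1 TPM, Col27a1 was 0.422, 0.505 and 0.511 TPM in homozygous mice and 0.183, 0.206 and 0.344 TPM in WT mice. Col11a1 and Col2a1, a partner and the main chain of cartilage fibrils, ran from 0 to 0.412 and from 0 to 0.206 TPM. These 3 genes were not tested.

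Basement membrane collagens varied least of the 4 classes, over a range of 1.23-fold. Their sum was 19.7, 21.04 and 17.3 TPM in homozygous mice and 17.1, 17.4 and 19.2 TPM in WT mice. Only Col4a1 and Col4a2, the chains of the common type IV trimer, were tested, and their median log2 fold change was 0.07 (-0.19 relative to all genes). Col4a1 (chromosome 8, 11198423 to 11312826) was 11.9, 13.1 and 10.1 TPM in homozygous mice and 9.19, 10.8 and 10.6 TPM in WT mice. Col4a2 (chromosome 8, 11312805 to 11449287) was 6.86, 6.57 and 6.27 TPM in homozygous mice and 6.82, 5.89 and 7.59 TPM in WT mice. In both genes the groups overlapped closely. Over all 6 libraries the coefficient of variation was 12.6% for Col4a1 and 8.70% for Col4a2, and 14.8% and 4.23% of all genes tested varied less. For Col3a1 and Col1a1 it was 47.5% and 42.1%, with 93.2% and 90.2% of genes varying less.

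The intervals of the log2 fold change, -0.17 to 0.52 for Col4a1 and -0.37 to 0.31 for Col4a2, were also narrower than those of Col1a1, Col1a2 and Col3a1 (limma, adjusted p 0.446 and 0.889). The pair is transcribed from opposite strands, and the annotated genes overlap by 22 bases at their starts, on GRCm38 and in GENCODE M21. The ratio of Col4a1 to Col4a2 was 1.35 to 1.99. Col4a3 and Col4a4, and Col4a5 and Col4a6, are also transcribed head to head, without overlap, and encode the chains of more specialised basement membranes. These 4 were under 1 TPM. Col4a3 was 0.271, 0.491 and 0.559 TPM in homozygous mice and 0.252, 0.255 and 0.126 TPM in WT mice, without overlap. Col4a5 ran from 0.267 to 0.741, Col4a4 from 0.0626 to 0.233 and Col4a6 from 0.0107 to 0.103 TPM, each with overlapping groups.

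Beaded-filament collagens followed the fibrillar pattern across libraries. Their sum was 22.2, 15.6 and 18.6 TPM in homozygous mice and 11.7, 29.4 and 18.8 TPM in WT mice. Loss of type VI collagen causes congenital muscular dystrophy in humans, and its Col6a1, Col6a2 and Col6a3 chains assemble together. Col6a1 (chromosome 10, 76708792 to 76726168) was 8.14, 5.797 and 6.24 TPM in homozygous mice and 4.17, 8.26 and 6.55 TPM in WT mice. Col6a2 (chromosome 10, 76595762 to 76623630) was 8.21, 4.84 and 5.45 TPM in homozygous mice and 3.63, 8.98 and 6.14 TPM in WT mice. Both were again lowest in WT 1 and highest in WT 2. Their ratio, Col6a1 to Col6a2, was 0.920 to 1.2 over the 6 libraries, the narrowest of the 9 chain ratios computed (1.30-fold).

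Col6a3 (chromosome 1, 90765923 to 90843971) was 5.32, 4.72 and 6.65 TPM in homozygous mice and 3.38, 11.6 and 5.67 TPM in WT mice. WT 2 stood well above the rest. The log2 fold changes were 0.11, 0.02 and -0.14 for Col6a1, Col6a2 and Col6a3, with adjusted p of 0.775, 0.962 and 0.805 (limma), and their intervals reached from -0.94 to 0.71. The alternative chains of type VI were under 1 TPM. Col6a6 was 0.409, 0.192 and 0.203 TPM in homozygous mice and 0.493, 0.610 and 0.434 TPM in WT mice, where the groups did not overlap. Col6a5 reached 0.0869 TPM and Col6a4 0.00964 TPM at most.

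**Figure D4:**
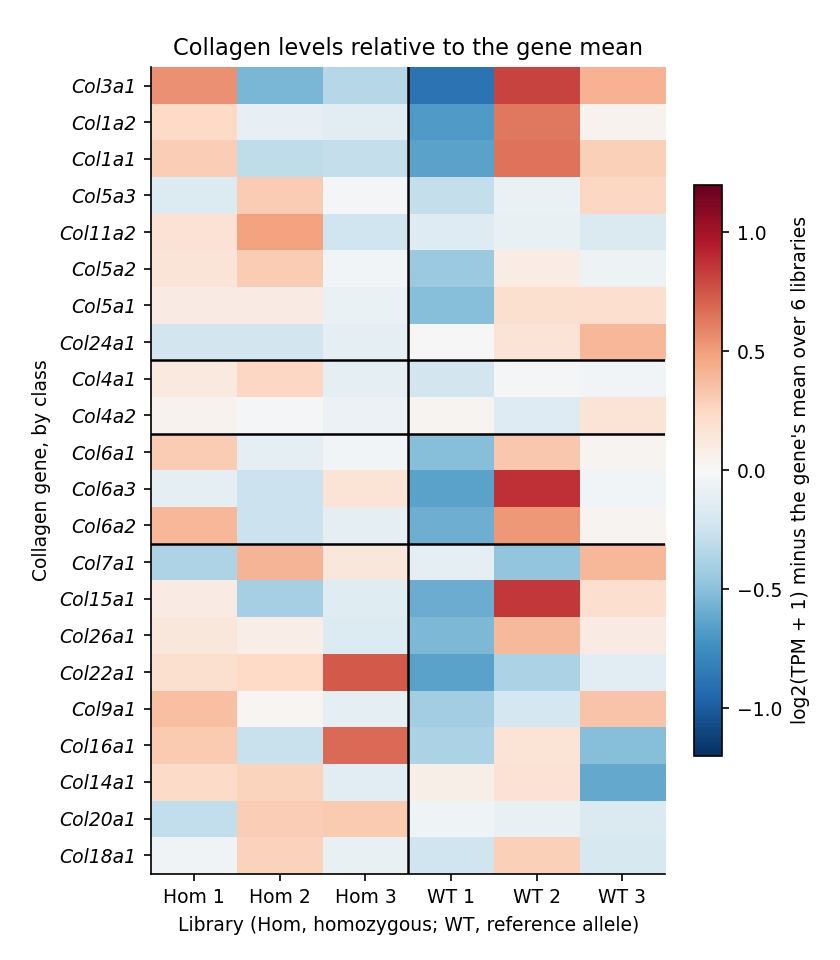
Log2(TPM + 1) of each tested collagen in each library minus the mean of that gene over 6 libraries, by class. WT 1 is the lowest library for 15 of the 22 genes and WT 2 the highest for 9, while Col4a1 and Col4a2 stay near their means.

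WT 1 was the lowest of the 6 libraries for 15 of the 22 tested collagens, and the lowest for 12.6% of all genes tested. WT 2 was the highest for 9 of the 22, and the highest for 7.62% of all genes. WT 3, which was the lowest for 55.8% of all genes, was so for 2 collagens. Summed markers of fibro-adipogenic cells, the main collagen makers (11 genes, none at 0 in all libraries), were 347, 463 and 282 TPM in WT 1, 2 and 3 and 474 to 591 TPM in the homozygous libraries. Most of that sum was Gsn, the sole marker of the 10 tested whose groups did not overlap, and the 10 genes without it summed to 151.5, 190.9 and 131.9 TPM in WT 1, 2 and 3 and to 180.4 to 192.9 TPM in the homozygous libraries, with overlap. All 10 tested members were above 0 in log2 fold change, against 85.8% of all genes. Markers of smooth muscle and pericytes (9 genes, 128.2 to 133.4 TPM against 83.2 to 112.1 TPM) did not overlap. Of all single genes tested, 34.7% had the homozygous libraries above. The 8 tested markers of that list had a median log2 fold change of 0.35 (0.086 relative to all genes). The groups overlapped for markers of endothelium (10 genes, 70.0 to 84.8 against 52.8 to 75.7 TPM), adipocytes (8 genes, 156.9 to 196.6 against 164.6 to 184.9 TPM) and immune cells (10 genes, 49.8 to 73.8 against 16.9 to 66.7 TPM). Relative to all genes, the medians of their tested members were 0.018 (endothelium, 10 tested), -0.18 (adipocytes, 5 tested) and 0.45 (immune cells, 5 tested). The homozygous libraries lay above for 2 of the 10 endothelial and 2 of the 5 immune markers tested. The part of cell content in the collagen levels was not tested.

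Among the other collagens, 9 of 21 were tested, 8 were above 0 and their median log2 fold change was 0.19 (-0.077 relative to all genes). Col22a1 (chromosome 15, 71795795 to 72034227), a FACIT collagen of the junction between muscle and tendon, had the largest difference of all 22. It was 2.56, 2.68 and 4.19 TPM in homozygous mice and 0.996, 1.40 and 1.85 TPM in WT mice. Every homozygous library lay above every WT library, as in 34.7% of all genes. Mean levels of 3.14 ± 0.905 and 1.42 ± 0.429 TPM resulted (SD, n = 3 each). On the log2 scale this was a difference of 0.77 (SE 0.22), or 0.51 relative to all genes, with an unadjusted p of 0.00718 (limma, adjusted p 0.168). Over 15 alternatives the adjusted p of Col22a1 ran from 0.0396 to 0.696 (limma). Col22a1 passed only with array weights, which weight each library by its fit (log2 fold change 0.96) and called 810 of all genes. Those weights were largest for WT 1, the lowest library for Col22a1, against 0.823 for WT 2 and 0.199 for WT 3. The WT side of that fit thus rested mostly on WT 1. After median centring the groups overlapped (log2 fold change 0.47).

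The full-span Col22a1 isoform (8809 nt) alone was 2.27, 2.21 and 2.57 TPM in homozygous mice and 0.996, 1.39 and 1.85 TPM in WT mice, still without overlap, with a log2 fold change of 0.49 (limma over isoform rows, unadjusted p 0.0579, adjusted p 0.328). It made up 99.6 ± 0.618% of the sum in WT and 77.4 ± 14.3% in homozygous muscle. A 659-nt isoform was at 0.290 and 1.19 TPM in homozygous 1 and 3 and listed at 0 in the other 4 libraries. Tendon and junction markers (7 genes, 4 tested, none at 0 in all libraries) summed to 23.0 to 34.7 TPM in homozygous mice and 25.3 to 32.96 TPM in WT mice, so the groups overlapped for these. Their part in the Col22a1 values was not tested.

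Summed over the 9 FACIT genes, the homozygous libraries (9.56, 9.21 and 11.3 TPM) lay above the WT libraries (6.02, 7.61 and 6.404 TPM), a sum that includes Col22a1. Of all single genes tested, 34.7% had the homozygous libraries above. The median log2 fold change of the 5 tested FACIT genes was 0.25, or -0.019 relative to all genes. Other FACIT collagens were low. Col16a1 was 1.76, 0.842 and 2.54 TPM in homozygous mice and 0.702, 1.47 and 0.551 TPM in WT mice, with a log2 fold change of 0.49 (interval -0.16 to 1.14; limma, adjusted p 0.291). Its 13 transcript rows held no isoform at 1 TPM or more in 3 libraries, and the leading row was an 833-nt noncoding transcript at the 3′ end. The full-span coding isoform of Col16a1 held 8.2e-06% of the sum. Col14a1, a fibril surface collagen, was 1.42 ± 0.349 and 1.08 ± 0.561 TPM in homozygous and WT muscle, Col9a1 was 1.73 ± 0.467 and 1.43 ± 0.686 TPM, and Col20a1 was 1.41 ± 0.534 and 1.05 ± 0.0840 TPM (SD, n = 3 each). All 3 had overlapping groups. Col12a1, a fascia and tendon collagen, was 0.709 TPM in WT 2 and 0.0382 to 0.2997 TPM elsewhere. Col19a1 was 0.218, 0.348 and 0.222 TPM in homozygous mice and 0.181, 0.127 and 0.0786 TPM in WT mice, without overlap, and Col9a2 and Col9a3 did not exceed 0.462 TPM.

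The multiplexin Col15a1 (chromosome 4, 47208161 to 47313167), which bridges the basement membrane and fibrils in muscle and capillaries, was 6.29, 4.17 and 5.17 TPM in homozygous mice and 3.52, 11.3 and 6.83 TPM in WT mice. It shared the pattern of a low WT 1 and a high WT 2, and had the lowest log2 fold change among collagens outside the fibrillar class, -0.30 (interval -1.08 to 0.48; limma, adjusted p 0.560). Without WT 2 it was 0.048. Col18a1, the precursor of endostatin, was 1.15 ± 0.309 and 1.02 ± 0.429 TPM in homozygous and WT muscle.

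Col7a1 (chromosome 9, 108953586 to 108984875), the anchoring fibril collagen of skin, had the second highest gene sum. It was 10.3, 18.5 and 15.1 TPM in homozygous mice and 12.6, 9.57 and 18.4 TPM in WT mice. WT 2, the highest library for Col3a1, was the lowest for Col7a1, and the groups overlapped (log2 fold change 0.12, interval -0.50 to 0.74; limma, adjusted p 0.780). Col26a1 was 3.83, 3.62 and 2.91 TPM in homozygous mice and 2.01, 4.73 and 3.69 TPM in WT mice, with a log2 fold change of 0.036.

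Transmembrane and small network collagens were under 1 TPM. Col8a1, a network collagen of vessel walls, was 1.11, 1.35 and 0.828 TPM in homozygous mice and 0.725, 0.564 and 0.239 TPM in WT mice and so missed the filter by 1 library. Col23a1 was 0.375, 0.777 and 0.404 TPM in homozygous mice and 0.248, 0.196 and 0.0679 TPM in WT mice. In both, the homozygous libraries lay above. Col13a1 and Col25a1, which act at the neuromuscular junction, ran from 0.0750 to 0.358 and from 0 to 0.175 TPM with overlap, as did Col17a1 (0.0510 to 0.354 TPM), Col8a2 (0.0284 to 0.194 TPM) and Col28a1, a collagen of peripheral nerve (0.0826 to 0.384 TPM). Schwann cell and perineurial markers (11 genes, 5 tested, none at 0 in all libraries) summed to 83.3, 115.9 and 34.1 TPM in homozygous 1, 2 and 3. In WT 1, 2 and 3 they summed to 22.3, 29.1 and 18.8 TPM, so homozygous 3 was close to WT 2. The homozygous libraries lay above for all 5 tested markers, with a median log2 fold change of 1.18 (0.91 relative to all genes). The part of these markers in the collagen values was not tested. Col10a1, the collagen of hypertrophic cartilage, was listed at 0 in all 6 libraries. Of the 21 collagens above 0 but under the filter, the homozygous libraries lay above in 5 (Col4a3, Col8a1, Col19a1, Col23a1 and Col27a1) and below in 1 (Col6a6), that is 23.8% and 4.76%, against 9.25% and 1.13% of 9640 such genes. The 21 collagens were not tested. The 9640 genes were taken at any level above 0, even if in 1 library only, where the groups count as overlapping. They were not matched in level to the collagens named, which were above 0 in every library, so the shares are not like for like. Among genes tested the share with the homozygous libraries above was 34.7%.

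The gene sums drew on unequal kinds of transcripts. In 14 of the 22 tested collagens the leading row was a full-span coding isoform, meaning the protein-coding isoform with the highest mean among those that cover at least 90% of the gene. In 7, among them Col1a1, Col1a2 and Col6a1, it held over 90% of the sum. Col3a1 was split between its 5564-nt isoform (42.6% to 53.8% of the sum) and a 737-nt coding isoform that ends 1940 nt before the 3′ end of the gene (46.2% to 51.1%). The 5564-nt isoform held 48.9 ± 1.40% in homozygous and 49.9 ± 6.31% in WT muscle (SD, n = 3 each). Col4a1 had 62.8% in its 6615-nt isoform and most of the rest in a 1170-nt isoform that ends 1096 nt before the 3′ end. The 6615-nt isoform was steadier than the gene sum, at 7.35, 7.33 and 6.832 TPM in homozygous mice and 6.32, 6.828 and 6.59 TPM in WT mice, with homozygous 3 barely above WT 2 (log2 fold change 0.11; limma over isoform rows, adjusted p 0.699). Col6a2 had 82.5% in its 3949-nt isoform and 14.6% in a 4653-nt coding isoform, with log2 fold changes of -0.03 and 0.13 (adjusted p 0.970 and 0.831). TPM is per transcript length, so a short isoform needs fewer fragments for the same value.

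In 8 collagens another row led. Col6a3 was led by a 646-nt retained-intron transcript that ends 1466 nt before the 3′ end of the gene, at 3.27, 1.78 and 3.59 TPM in homozygous mice and 1.69, 8.66 and 4.23 TPM in WT mice. Its 9001-nt coding isoform was 2.02, 2.66 and 2.75 TPM in homozygous mice and 1.46, 2.78 and 1.44 TPM in WT mice. The high Col6a3 sum of WT 2 thus lay in the short row, and the coding isoform alone gave a log2 fold change of 0.29 in place of -0.14. Col15a1 was led by a 1755-nt coding isoform of 8 exons near the 3′ end (63.7% of the sum), and its 5172-nt isoform held 19.6%.

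Col7a1 was split between a 525-nt retained-intron row (39.8% over all libraries), its 9198-nt coding isoform (30.5%) and a 2770-nt retained-intron row. The 9198-nt isoform was 3.82, 5.32 and 4.93 TPM in homozygous mice and 3.71, 2.28 and 5.70 TPM in WT mice, with a mean of 4.29 TPM over the 6 libraries against 14.1 TPM for the gene sum. Col26a1 rested almost wholly on a 578-nt retained-intron row (92.7% to 98.8% per library). Its 2724-nt coding isoform did not exceed 0.232 TPM, which is under the 1 TPM mark. Of 24 collagen isoforms tested, 0 passed the threshold (limma over 21165 isoform rows, of which 0.0425% passed), and 0 had an unadjusted p under 0.05, against 15.7% of all isoform rows. After the Col22a1 isoform the smallest p values were those of the 9001-nt Col6a3 isoform and of the 6625-nt Col5a2 isoform (log2 fold change 0.29 and 0.23, adjusted p 0.544 and 0.577).

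**Figure D5:**
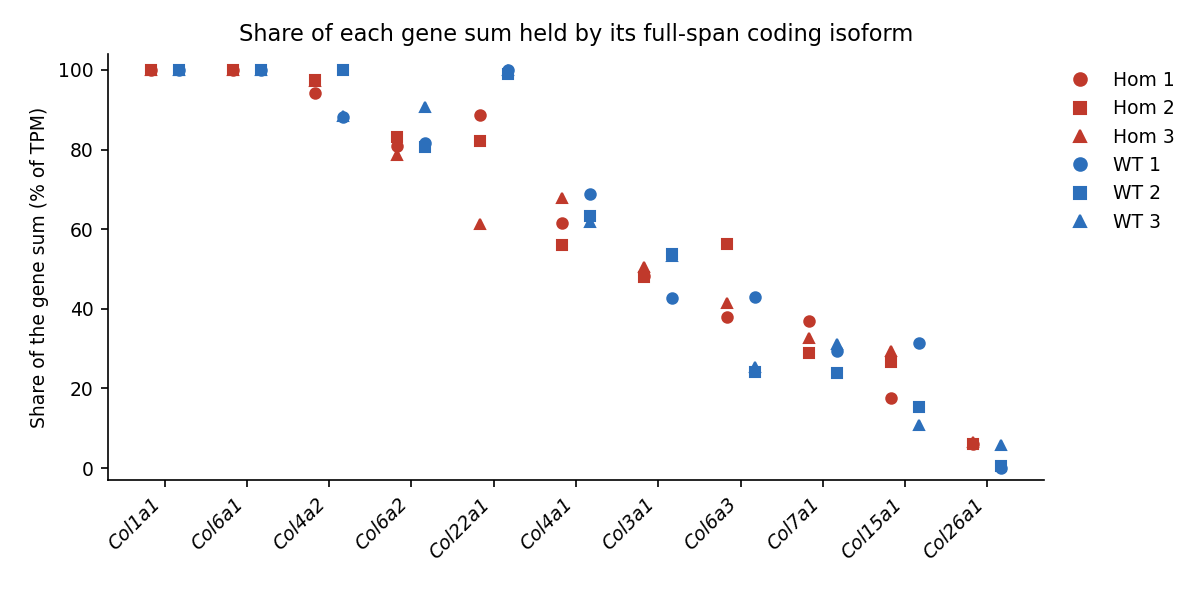
Share of each gene sum (percent of TPM) held by the full-span coding isoform in each library, for 11 collagens. Shares run from 100% in Col1a1 and Col6a1 to between 0 and 6.51% in Col26a1, and the Col22a1 share is lower in the 3 homozygous libraries (61.4% to 88.7%) than in WT.

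Genes that make, cut, bind and anchor collagen were read from 7 lists, and 0 of their tested members passed the threshold. In the folding and hydroxylation list (21 genes, 19 tested), 4 were higher and 0 lower at an unadjusted p under 0.05, against 23.7% and 0.55% of all genes, and the median log2 fold change was 0.20 (-0.066 relative to all genes). P4hb, a subunit of prolyl 4-hydroxylase, was 104.9 ± 4.72 and 93.9 ± 14.9 TPM in homozygous and WT muscle, and Mia3, which loads procollagen for export, was 71.5 ± 8.75 and 56.2 ± 6.66 TPM (SD, n = 3 each). P3h4, a partner of prolyl 3-hydroxylase, had the largest difference of the list, 3.44 ± 1.33 against 1.59 ± 0.310 TPM (log2 fold change 0.74; limma, adjusted p 0.168). P4ha2, a catalytic hydroxylase subunit, was 16.0 ± 2.79 against 11.3 ± 0.457 TPM (0.46; adjusted p 0.171).

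In the procollagen cleavage and crosslinking list (15 genes, 8 tested), 1 of 8 was higher and 0 lower at an unadjusted p under 0.05, against 23.7% and 0.55% of all genes, and the median log2 fold change was 0.32 (0.058 relative to all genes). Adamts2, the protease that removes the N-terminal propeptide, was 1.78 ± 0.0749 against 1.06 ± 0.314 TPM (log2 fold change 0.45; limma, adjusted p 0.182), and Bmp1, which removes the C-terminal one, was 5.04 ± 0.564 against 3.74 ± 0.430 TPM (0.35). Pcolce, the enhancer of that cleavage, was 14.0 ± 0.587 against 16.3 ± 4.18 TPM, and the crosslinking enzyme Tgm2 29.6 ± 5.38 against 24.3 ± 6.38 TPM, both with overlap. In the turnover list (17 genes, 10 tested), 1 of 10 was higher and 0 lower at that p, against the same shares of all genes, with a median of 0.24 (-0.029 relative to all genes). Timp3, a matrix-bound inhibitor of metalloproteinases, was 58.9 ± 11.0 against 30.4 ± 10.1 TPM without overlap (log2 fold change 0.96, 0.70 relative to all genes; limma, adjusted p 0.168). Timp2 was 23.4 ± 0.735 against 19.2 ± 3.04 TPM (0.28).

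In the list of collagen receptors and matrix-linked cell surface proteins (10 genes, 6 tested), 3 were higher and 0 lower at an unadjusted p under 0.05, against 23.7% and 0.55% of all genes, with a median log2 fold change of 0.40 (0.14 relative to all genes). Itgb1, the shared beta chain of collagen-binding integrins, was 88.0 ± 10.5 against 53.9 ± 16.5 TPM (0.74; limma, adjusted p 0.168), Ddr1, a collagen-activated kinase, 5.95 ± 0.690 against 4.01 ± 0.244 TPM (0.47), and Dag1, the dystroglycan that binds laminin, 33.4 ± 1.87 against 26.2 ± 3.08 TPM (0.34). The groups of all 3 did not overlap, as in 34.7% of all genes with the homozygous libraries above, and Dag1 is not itself a collagen receptor. In the list of fibril-associated proteoglycans and glycoproteins (16 genes, 14 tested), 1 of 14 was higher and 0 lower at that p, against the same 23.7% and 0.55%, with a median of 0.34 (0.074 relative to all genes). Decorin (Dcn), which coats fibrils, was the most abundant at 146.6 ± 21.2 against 127.2 ± 66.4 TPM, with Bgn at 17.02 ± 1.69 against 11.3 ± 5.24 TPM, both overlapping. Tnxb, a spacer of fibrils, was 6.50 ± 0.391 against 4.17 ± 0.908 TPM (0.55; limma, adjusted p 0.168), and Eln 6.61 ± 1.003 against 4.997 ± 0.207 TPM (0.34).

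The other basement membrane components (laminins, nidogens, perlecan and agrin, 15 genes, 10 tested) had 1 higher and 0 lower at an unadjusted p under 0.05, against 23.7% and 0.55% of all genes, and a median log2 fold change of 0.21 (-0.050 relative to all genes). Lama2, the laminin chain of the muscle fibre, was 8.43 ± 1.12 against 5.27 ± 1.65 TPM (0.62; limma, adjusted p 0.172) and Lamb1 3.63 ± 0.173 against 2.60 ± 0.545 TPM (0.37). Lamb2 was 27.6 ± 4.13 against 23.1 ± 3.33 TPM and the perlecan gene Hspg2 25.4 ± 0.636 against 23.6 ± 4.25 TPM, both overlapping. In the TGF-beta list (16 genes, of which 15 were in the table and 14 tested), the pathway known to drive collagen synthesis, 7 were higher and 0 lower at that p, against 23.7% and 0.55% of all genes. All 14 were above 0, against 85.8%, with a median of 0.44 (0.18 relative to all genes), and 9 had homozygous libraries above all WT libraries, against 34.7% of all genes. Tgfbr2, a receptor, was 8.07 ± 1.44 against 3.82 ± 1.43 TPM (log2 fold change 0.95, 0.69 relative to all genes) and Ltbp1, a carrier of latent TGF-beta, 4.02 ± 0.448 against 2.19 ± 0.503 TPM (0.66; limma, adjusted p 0.168 each). Ltbp4 was 29.1 ± 2.90 against 22.2 ± 3.73 TPM (0.39) and Smad3 19.4 ± 4.09 against 17.5 ± 0.902 TPM (0.12). With median centring the medians of the folding, turnover and laminin lists were below 0, at -0.10, -0.066 and -0.087. Those of the TGF-beta and receptor lists stayed above it, at 0.14 and 0.10, and that of the cleavage list did so by less. The centred median of the fibril-associated list is not given here.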

How the data were processed

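The study measured RNA of quadriceps muscle in 6 libraries, 3 homozygous and 3 WT, with groups taken from the sample labels. The authors deposited a TPM table with 1 row per Ensembl transcript and 1 column per library, each summing to 1000000. FastQC, Trimmomatic, HISAT2, kallisto and build mm10 are named in the submitters' processing notes, with no role, version or annotation release (not given in the sources used here). TPM carries no depth, so the fragments behind a value are unknown, no counting interval is given, and low collagens are the least certain. The number of columns matched to no sample was 0.

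TPM was summed per gene and taken as log2(TPM + 1), so fold changes of low genes are understated. Genes reaching 1 TPM in 3 or more libraries went into limma 3.58.1 in R 4.3.3 (trend, robust, genotype only, adjusted p under 0.05 by Benjamini-Hochberg over all genes). The labels say nothing of the replicates beyond their numbers, so p-values measure only the spread between these samples, which may be technical. On simulated data with 11099 genes and 200 changed by 1 or 2 on the log2 scale, 43.5% and 92.5% were recovered, and 0% at 0.5. The simulated noise was independent between genes and libraries, with each gene's own spread and no shift shared by a library. In the data WT 3 was the lowest library for 55.8% of all genes. The rates may therefore not hold for these data, and they were not computed for collagens alone. Positions and lengths are from GENCODE M21 on GRCm38, the assembly called mm10, and upstream sequences from RefSeq (GRCm38.p6). Python 3.11.15 was used for tables.

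The members, classes and lists were chosen with earlier results of these data known. Named were all tested collagens, those under 1 TPM by range or by library where groups did not overlap, and from each list the 2 genes with the highest mean and the 2 with the smallest p. Collagens printed by library beyond a mean of 10 TPM or the 3 smallest p in a direction were chosen after their values were seen. Alternatives were quantile normalization, median centring, a pseudocount of 0.1, no filter, leaving out each library, blocking on replicate number, weighting arrays, a length trend removed by loess (span 0.5) and mitochondrial transcripts left out. A further alternative, the full-span coding isoform only, was chosen after seeing the data.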

Additional observations from a re-analysis of the deposited data

How the results depend on the processing

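The count of collagens past the threshold was 0. With array weights it was 1 (Col22a1), and the count over all genes went from 0 to 810. The weights were largest for WT 1 and smallest for WT 3 (0.199), so the WT side of that setting rested mostly on WT 1. The collagen count was 0 in the 14 other alternatives. Leaving out each library gave 0 to 2 genes over all (2 without WT 1, 1 without WT 2) and 0 collagens. Collagens at an unadjusted p under 0.05 numbered 1, 2 with no filter, 2 with array weights and 1 to 3 without each library (3 without WT 1, 2 without homozygous 2, homozygous 3 or WT 2). Collagens above 0 numbered 16, but 2 with quantile normalization, 2 with median centring, 2 with the length trend removed, and 10 to 19 without each library (10 without WT 1).

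Class medians moved with the scaling. The median of all genes moved too, from 0.26 to -0.0070 (quantile normalization), -0.037 (median centring) and -0.012 (length trend removed). Its part in the class medians was not tested. In that order of settings, the fibrillar median of 0.04 became -0.25, -0.26 and -0.35, the basement membrane median of 0.07 became -0.21, -0.23 and -0.30, the median of other collagens of 0.19 became -0.069, -0.11 and -0.12, and that of all 22 of 0.09 became -0.19, -0.21 and -0.25. The fibrillar median was 0.29 with array weights and -0.25 to 0.16 without each library (-0.25 without WT 1). The array weights favoured WT 1, the lowest library for 15 of the 22 collagens. The beaded-filament median of 0.02 became -0.27, -0.28 and -0.32 in the same order, and was 0.22 with array weights and -0.27 (without WT 1) to 0.29 (without WT 2) without each library. With median centring the list medians were -0.10 (folding), 0.021 (cleavage), -0.066 (turnover), 0.10 (receptors), -0.087 (laminins) and 0.14 (TGF-beta), with that of the fibril-associated list not given. The cleavage median was 0.12 to 0.36 without each library.

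All isoforms past the threshold numbered 9, 3 with quantile normalization, 5 with median centring, 4 with a pseudocount of 0.1, 0 with no filter, 14 with array weights and 0 to 36 without each library (36 without WT 1, 0 without homozygous 1, homozygous 2 or WT 3, 1 without homozygous 3); 0 were collagen isoforms in any. Removal of the length trend and of mitochondrial transcripts was not run on isoforms. The replicate number as a block left 0 genes, 0 collagens and 0 isoforms past the threshold. Deviations of same-numbered libraries correlated at -0.071, 0.061 and -0.013 across genes, so the numbers were not taken to pair the samples.

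Signs of single collagens changed as follows, and the cause was not tested. With quantile normalization, median centring and the length trend removed, in that order, Col1a2 was -0.29, -0.30 and -0.37, Col4a1 -0.10, -0.13 and -0.18, Col5a1 -0.20, -0.22 and -0.33, Col5a2 -0.0057, -0.022 and -0.11, Col5a3 -0.21, -0.22 and -0.31, Col6a1 -0.18, -0.20 and -0.24, Col6a2 -0.27, -0.28 and -0.32, Col7a1 -0.16, -0.18 and -0.22, Col9a1 -0.069, -0.11 and -0.14, Col11a2 -0.0050, -0.021 and -0.046, Col14a1 -0.013, -0.055 and -0.076, Col18a1 -0.16, -0.20 and -0.26, Col20a1 -0.042, -0.091 and -0.12, and Col26a1 -0.26, -0.27 and -0.11. With array weights Col1a1 was 0.10, Col3a1 0.15, Col6a3 0.17 and Col15a1 0.00073. On the full-span isoform Col4a2 was 0.024, Col6a2 -0.027, Col6a3 0.29 and Col15a1 0.058. Without mitochondrial transcripts Col1a2 was -0.0094. Leaving out each library gave ranges that cross 0: Col1a1 -0.57 to 0.077, Col1a2 -0.34 to 0.32, Col3a1 -0.73 to 0.12, Col4a2 -0.12 to 0.043, Col5a1 -0.16 to 0.20, Col5a3 -0.055 to 0.22, Col6a1 -0.13 to 0.30, Col6a2 -0.27 to 0.29, Col6a3 -0.49 to 0.27, Col7a1 -0.089 to 0.35, Col15a1 -0.67 to 0.048, Col18a1 -0.016 to 0.27 and Col26a1 -0.23 to 0.24. Col22a1 (0.37 to 1.10), Col16a1 (0.19 to 0.83) and Col24a1 (-0.75 to -0.24) kept their sign in every alternative run for them. The full-span isoform alternative was not run for Col16a1 and Col24a1, whose full-span isoforms did not reach the filter.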
